A study of Homo sapiens with 15 samples.

Results

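LMO2, LMO4, LDB1, LDB2, SSBP2, SSBP3 and SSBP4 are the 7 genes examined here, picked by symbol as LIM-only proteins, their LDB partners and the SSBP proteins that keep LDB stable. They are 7 of the 25737 gene entries listed for U87MG, an established human glioblastoma cell line. The cells received lentivirus for 24 h, carrying either GFP as the control or 1 of ID1, ID2, ID3 and ID4, and each of these 5 groups had 3 libraries. All groups shared the line and the exposure to virus, and no other allele or agent was named for them. The libraries were made with a QuantSeq kit, which sequences a tag from the 3′ end of polyadenylated RNA, so that a transcript gives about 1 tag whatever its length. The values are given as CPM, the raw count of a gene divided by its library total and scaled to 1000000.

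LIM-only (LMO) proteins carry LIM domains and little else, and they do not bind DNA themselves. They are held by LDB proteins, which form dimers and in this way join LMO and LIM-homeodomain proteins on distant DNA sites. LMO2 is best known from blood and endothelial development and from T-cell leukemia, where it bridges TAL1, an E protein and a GATA factor over LDB1. SSBP proteins bind LDB and protect it from degradation through the ubiquitin ligase RLIM. ID proteins, the genes carried by the viruses, are helix-loop-helix proteins without a basic region that sequester the E proteins TCF3, TCF4 and TCF12.

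Total counts ran from 11089044 to 15148979 per library. The virus label did not always match the level of the labelled gene. GFP libraries held 0 to 2 counts of ID4 mRNA and ID4-labelled libraries 210 to 235 CPM. ID3 mRNA was 313 CPM with its own label against 221 in GFP. It did not mark that label, since the ID2-labelled libraries (268 to 319 CPM) overlapped the ID3-labelled ones (301 to 323 CPM). ID1 mRNA was lower with its own label than in GFP (250 against 344 CPM), and so was ID2 mRNA (44.9 against 85.7 CPM). ID2 mRNA was below GFP with the other labels too, at 34.3, 46.7 and 35.9 CPM with ID1, ID3 and ID4. The groups are therefore named by their label, as "ID1-labelled" and so on. The tags do not separate vector from endogenous transcripts. Library 3 of the ID2-labelled group stood apart, with a chi-square per gene of 10.7 and 11.3 against its own replicates where the other replicate pairs had 2.24 to 5.19. Values without it, or those of the single libraries, are given beside the main results with this label. Of the markers checked, the 5 mesenchymal glioblastoma genes summed to 7525 to 8295 CPM in GFP, 9388 to 9662 with the ID1 label, 12150 to 13234 with ID2, 9960 to 10298 with ID3 and 8564 to 8646 with ID4. With the ID2 label 4 of these 5 were higher than GFP and 1 was lower, and their part in the results of the 7 genes with that label was not tested. The glial and progenitor genes summed to 17.5 to 30.2 CPM, nearly all of it NES. GFAP, SOX2 and S100B stayed under 10 counts in every library. The 5 hematopoietic markers summed to at most 1.07 CPM and the 5 endothelial ones to at most 1.74 CPM.

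LMO2 tags were scarce and fell with 3 of the 4 ID labels, while those of its paralogue LMO4 were abundant and rose with the same 3 labels. LDB2 rose with the ID3 and ID4 labels, SSBP2 with the ID2 and ID3 labels and SSBP4 with the ID2 label. LDB1 and SSBP3 did not pass against GFP in any group. These calls are edgeR quasi-likelihood tests with Benjamini-Hochberg adjustment at 0.05 over the 12870 genes in the upper 50% by mean deposited log2 value, which include all 7 genes. Against GFP, 2 of the 7 passed with the ID1 label (1 higher, 1 lower), where 22.1% of all tested genes passed (12.4% higher, 9.73% lower). With the ID2 label 4 passed (3 higher, 1 lower), where 35.1% of all tested genes did (18.5% higher, 16.7% lower). With the ID3 label 4 passed (3 higher, 1 lower), where 28.6% of all did (15.1% higher, 13.5% lower). With the ID4 label 1 passed (higher), where 21.6% of all did (12.1% higher, 9.51% lower). The 3 libraries of the ID label and those of GFP did not overlap for 5, 4, 5 and 4 of the 7 genes with ID1 to ID4, where 37.1%, 42.3%, 40.6% and 37.1% of all tested genes did not. Nothing is read from these counts about the 7 genes as a set, and the account below is of single genes. The 4 comparisons share their GFP libraries.

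**Figure D1:**
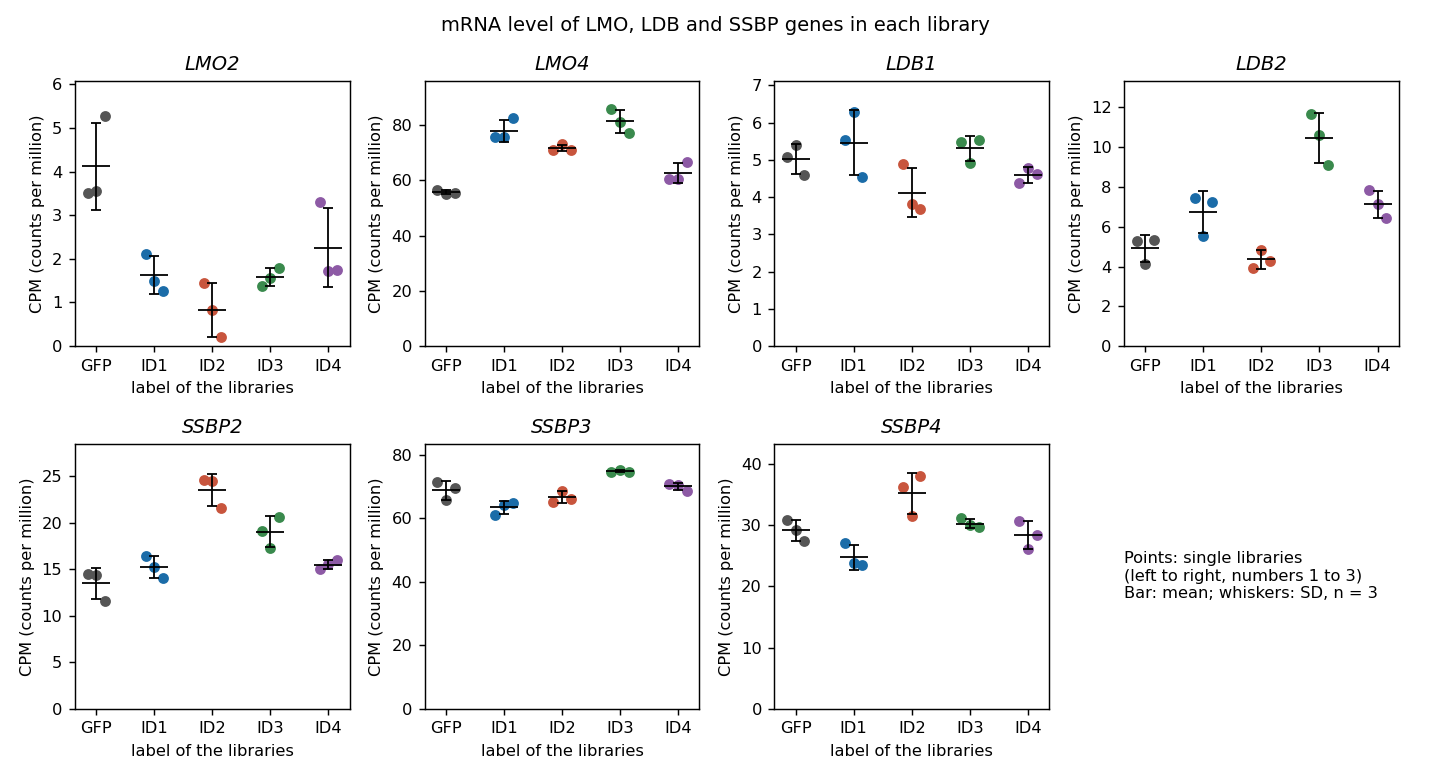
Level of each gene in every library, in CPM on a linear axis from 0, by library label; points are libraries in the order 1 to 3, bars are means and whiskers the SD (n = 3). LMO2 lies below its GFP level with every ID label, LMO4 lies above it, and LDB2 is highest with the ID3 label at 10.5 CPM.

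LMO2 lies on the minus strand of chromosome 11 from 33880122 to 33913623 (GRCh37). The GFP libraries held 50, 43 and 63 LMO2 counts, or 3.52, 3.56 and 5.27 CPM. The ID1-labelled libraries held 32, 20 and 17 counts, or 2.11, 1.49 and 1.27 CPM. The ID2-labelled libraries held 20, 12 and 3 counts, or 1.46, 0.831 and 0.208 CPM. All 6 of these libraries were below the lowest GFP library, and the lowest of all was the ID2-labelled library 3, with only 3 counts. With the ID3 label the counts were 20, 22 and 24, or 1.39, 1.57 and 1.80 CPM. With the ID4 label they were 43, 19 and 23, or 3.30, 1.71 and 1.74 CPM, so that library 1 came close to the GFP libraries without reaching them. Intervals from the counts alone were wide: 2.61 to 4.64 CPM for GFP library 1 and 0.0428 to 0.607 CPM for the lowest library (95% exact Poisson, which covers counting error only).

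The mean LMO2 level was 4.12 ± 0.999 CPM in GFP (SD, n = 3) and 0.832 ± 0.625 CPM with the ID2 label (SD, n = 3), a log2 fold change of -2.29 (SE 0.37, edgeR adjusted p = 5.12e-05). Without ID2-labelled library 3 it was -1.83 (edgeR adjusted p = 0.000105). With the ID1 label the level was 1.63 ± 0.437 CPM (SD, n = 3), a log2 fold change of -1.33 (SE 0.33, edgeR adjusted p = 0.00531). The ID3-labelled group had a similar level, 1.58 ± 0.205 CPM (SD, n = 3), with -1.39 (SE 0.33, edgeR adjusted p = 0.00318). With the ID4 label LMO2 was 2.25 ± 0.907 CPM (SD, n = 3) and the log2 fold change of -0.85 (95% interval -1.52 to -0.19) did not pass (edgeR adjusted p = 0.0628). Without ID4-labelled library 1 this value was -1.25 and passed (edgeR adjusted p = 0.0230). With all libraries kept it was -0.85 and passed with no filter beyond a count above 0 (edgeR adjusted p = 0.00798). It also passed with only the 2 groups (-0.85, edgeR adjusted p = 0.0258). These were the only 3 alternatives under which it passed. In descending order LMO2 ran from GFP through the ID4, ID1 and ID3 labels to ID2, and no step between neighbours passed. In such bulk libraries, fewer cells with a transcript and less of it per cell cannot be told apart. Between ID labels, LMO2 was lower with ID2 than with ID4 (-1.43, edgeR adjusted p = 0.0174), a call that was lost without ID2-labelled library 3 (-0.98, edgeR adjusted p = 0.0670) or without ID4-labelled library 1 (-1.04, edgeR adjusted p = 0.144). It was also lost with only the 2 groups (-1.44, edgeR adjusted p = 0.0659).

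LMO4 lies on the plus strand of chromosome 1 from 87794563 to 87814606 (GRCh37). It encodes a LIM-only protein of epithelial and neural tissue that competes with LMO2 and with LIM-homeodomain factors for LDB. The GFP libraries were nearly equal at 56.4, 55.1 and 55.6 CPM (664 to 801 counts). The ID1-labelled libraries had 75.5, 75.7 and 82.5 CPM and the ID2-labelled ones 71.1, 73.1 and 70.9 CPM. The ID3-labelled libraries, at 85.7, 81.0 and 77.3 CPM, had the highest mean (81.3 CPM) and overlapped the ID1-labelled ones. The ID4-labelled libraries, at 60.5, 60.5 and 66.7 CPM, were above all GFP libraries and below all those of the other ID labels. The log2 fold change against GFP was 0.47 with the ID1 label (SE 0.06, edgeR adjusted p = 4.29e-06), 0.38 with ID2 (SE 0.06, edgeR adjusted p = 3.29e-05) and 0.53 with ID3 (SE 0.06, edgeR adjusted p = 7.53e-07). Without ID2-labelled library 3 the ID2 value was 0.38 again (edgeR adjusted p = 5.43e-05). With the ID4 label the difference of 0.17 (95% interval 0.04 to 0.29) did not pass (edgeR adjusted p = 0.0560), although it passed with upper-quartile normalization (edgeR adjusted p = 0.0452). LMO4 was also higher with ID1, ID2 and ID3 than with ID4, by 0.30, 0.21 and 0.36 on the log2 scale (edgeR adjusted p = 0.00294, 0.0143 and 0.000383), and the middle call was lost without ID4-labelled library 1 (edgeR adjusted p = 0.0701) or 2 (edgeR adjusted p = 0.0687) and held without ID2-labelled library 3 (0.21, edgeR adjusted p = 0.0253). With only the 2 groups, the call between ID2 and ID4 was lost as well (0.21, edgeR adjusted p = 0.0612). The ID1, ID2 and ID3 labels did not pass against each other.

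The balance of the paralogues was lowest for LMO2 with the ID1, ID2 and ID3 labels. LMO2 supplied 6.87 ± 1.56% of the LMO2 and LMO4 tags in GFP (SD, n = 3), with libraries at 5.88%, 6.07% and 8.67%. With the ID1, ID2 and ID3 labels it supplied 2.06 ± 0.613%, 1.14 ± 0.858% and 1.92 ± 0.340% (SD, n = 3 each), and the highest of these 9 libraries was at 2.72%. Without ID2-labelled library 3 the ID2 share was 1.57%. The ID4-labelled libraries, at 5.17%, 2.75% and 2.54%, were all below GFP. Their mean of 3.49% lay between GFP and the other ID labels, but the lowest of them was below the highest ID1-labelled library. For each LDB1 tag there were 0.834 ± 0.270 LMO2 tags in GFP (SD, n = 3), 0.299 ± 0.0736 with the ID1 label, 0.191 ± 0.123 with ID2, 0.299 ± 0.0396 with ID3 and 0.497 ± 0.223 with ID4. The ID2-labelled libraries 1 to 3 had 0.299, 0.218 and 0.0566, so that library 3 lowered the ID2 mean. The other 2 genes of the family, LMO1 and LMO3, had fewer than 10 counts in every library.

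**Figure D2:**
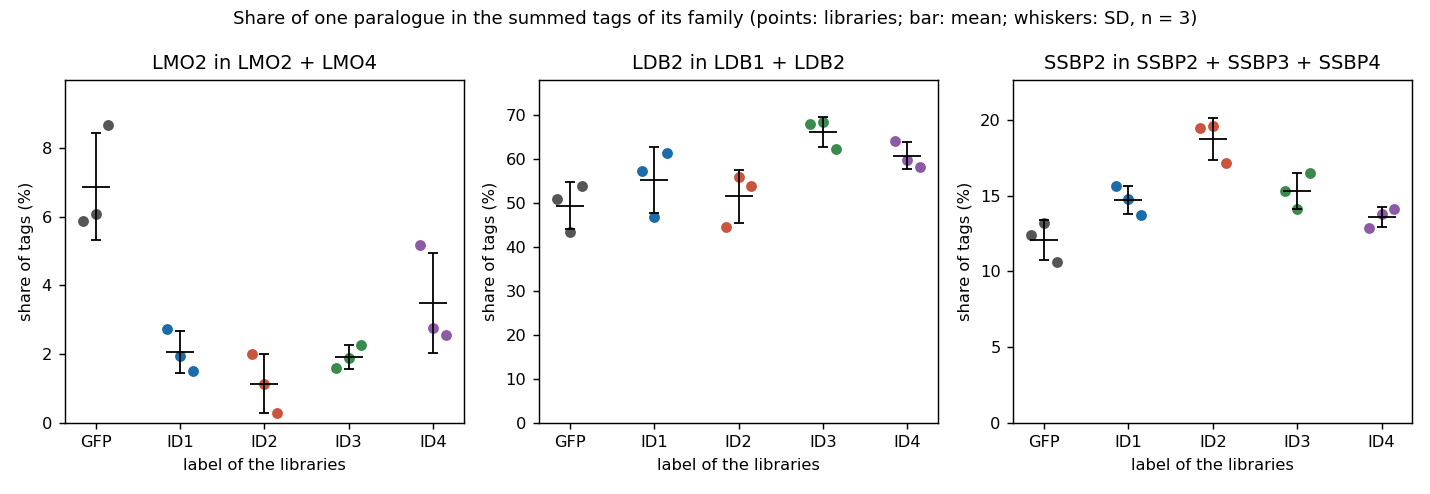
Share of 1 paralogue in the summed tags of its family, in percent on axes from 0, by library label; points are libraries in the order 1 to 3, bars are means and whiskers the SD (n = 3). The share of LMO2 is 6.87% in GFP and 1.14% with the ID2 label, that of LDB2 is highest with the ID3 label at 66.2%, and that of SSBP2 with the ID2 label at 18.8%.

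LDB1 lies on the minus strand of chromosome 10 from 103866246 to 103880125 (GRCh37) and encodes the widely expressed LIM-domain binding protein of LMO2 complexes. Its level was 5.07, 5.39 and 4.60 CPM in GFP. The ID1-labelled libraries had 5.54, 6.28 and 4.55 CPM and the ID2-labelled libraries 4.88, 3.81 and 3.67 CPM. The other groups had 5.48, 4.91 and 5.53 CPM (ID3) and 4.37, 4.78 and 4.62 CPM (ID4). Each ID group overlapped GFP. The log2 fold changes against GFP were 0.11 (95% interval -0.23 to 0.44), -0.27 (-0.62 to 0.08), 0.06 (-0.28 to 0.40) and -0.13 (-0.48 to 0.22) with the labels ID1 to ID4. None of the 10 comparisons of LDB1 passed, with edgeR adjusted p-values of 0.118 to 0.896, and with 53 to 84 counts per library a change smaller than these intervals was not detectable. The ID2 value without ID2-labelled library 3 was -0.20 (edgeR adjusted p = 0.458).

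LDB2, the paralogue of LDB1 with a more restricted tissue distribution, lies on the minus strand of chromosome 4 from 16503164 to 16900301 (GRCh37). It had 5.28, 4.14 and 5.36 CPM in GFP, about as many tags as LDB1. The ID3-labelled libraries were the highest at 11.6, 10.6 and 9.13 CPM, above every other library. The ID4-labelled libraries had 7.82, 7.12 and 6.43 CPM and the ID1-labelled ones 7.46, 5.53 and 7.24 CPM, all above GFP. The ID2-labelled libraries, at 3.94, 4.85 and 4.29 CPM, overlapped GFP. LDB2 rose 2.09-fold with the ID3 label (log2 fold change 1.06, SE 0.15, edgeR adjusted p = 1.99e-05). With the ID4 label it rose by 0.53 (SE 0.16, edgeR adjusted p = 0.0239), a call lost without GFP library 2 (0.42, edgeR adjusted p = 0.115), ID4-labelled library 1 (0.45, edgeR adjusted p = 0.108) or ID4-labelled library 2 (0.53, edgeR adjusted p = 0.0542). With the ID1 label 0.44 did not pass (95% interval 0.10 to 0.77, edgeR adjusted p = 0.0582) unless ID1-labelled library 2 was left out (0.56, edgeR adjusted p = 0.0256), and with ID2 the value was -0.16 (-0.52 to 0.20, edgeR adjusted p = 0.508), and -0.16 without ID2-labelled library 3 (edgeR adjusted p = 0.588). A noncoding gene, ENSG00000248138, overlaps the last 1000 bases of LDB2 on the other strand, and whether the counting used strand is not stated.

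LDB2 differed between more ID labels than any other of the 7 genes, in 5 of 6 pairs. It was 2.34-fold higher with ID3 than with ID2 (log2 difference of ID2 from ID3 -1.22, SE 0.15, edgeR adjusted p = 1.07e-05), and this held without ID2-labelled library 3 (-1.22, edgeR adjusted p = 2.21e-05). ID3 was also above ID1 and ID4, where ID1 differed from it by -0.63 (edgeR adjusted p = 0.00884) and ID3 exceeded ID4 by 0.54 (edgeR adjusted p = 0.0212). Both of these calls depended on single libraries, with edgeR adjusted p-values of 0.0590 without ID3-labelled library 1 and 0.0597 without ID1-labelled library 2 for the first, and of 0.103, 0.0673, 0.0614 and 0.0975 without ID3-labelled library 1 or 2 or ID4-labelled library 2 or 3 for the second. The ID1 and ID4 labels exceeded ID2 by 0.60 (edgeR adjusted p = 0.0121) and 0.69 (edgeR adjusted p = 0.00481), the former lost without ID1-labelled library 1 (0.0630) or 3 (0.0521) or ID2-labelled library 1 (0.0519). Both held without ID2-labelled library 3 (ID1 minus ID2 0.59, edgeR adjusted p = 0.0292; ID2 minus ID4 -0.68, edgeR adjusted p = 0.0119). LDB2 supplied 49.4 ± 5.33% of LDB1 and LDB2 tags in GFP, 55.2 ± 7.52% with ID1, 51.5 ± 6.05% with ID2, 66.2 ± 3.43% with ID3 and 60.7 ± 3.06% with ID4 (SD, n = 3 each). Together the pair gave 9.95 CPM in GFP, 12.2 with ID1, 8.48 with ID2, 15.8 with ID3 and 11.7 with ID4. The ID2-labelled libraries 1 to 3 had LDB2 shares of 44.6%, 56.0% and 53.9% and sums of 8.82, 8.66 and 7.96 CPM.

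The SSBP genes encode the single-stranded DNA-binding proteins that attach to LDB. SSBP2 lies on the minus strand of chromosome 5 from 80708623 to 81047616, SSBP3 on the minus strand of chromosome 1 from 54691105 to 54879152, and SSBP4 on the plus strand of chromosome 19 from 18529674 to 18545372 (GRCh37). SSBP3 supplied the most tags and SSBP2 the fewest. SSBP2 had 14.5, 14.4 and 11.5 CPM in GFP and 24.6, 24.4 and 21.6 CPM with the ID2 label, the 3 highest libraries of the 15. The ID3-labelled libraries had 19.1, 17.3 and 20.6 CPM, between the ID2-labelled ones and the rest. The ID1-labelled libraries had 16.4, 15.2 and 14.1 CPM, overlapping GFP, and the ID4-labelled ones 15, 15.5 and 16 CPM, just above GFP.

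SSBP2 rose with the ID2 label by 0.82 on the log2 scale (SE 0.10, edgeR adjusted p = 1.70e-06), or 1.76-fold. Without ID2-labelled library 3 the log2 fold change was 0.87 (edgeR adjusted p = 4.69e-07). With the ID3 label SSBP2 rose by 0.47 (SE 0.10, edgeR adjusted p = 0.00155). With ID1 and ID4 the values were 0.16 (95% interval -0.06 to 0.38) and 0.20 (-0.03 to 0.42) and did not pass (edgeR adjusted p = 0.324 and 0.218). SSBP2 was higher with ID2 than with ID1 (ID1 minus ID2, -0.66, edgeR adjusted p = 7.12e-05), ID4 (0.62, edgeR adjusted p = 0.000136) and ID3 (0.34, edgeR adjusted p = 0.0190). The last call was lost with only the 2 groups (0.34, edgeR adjusted p = 0.0590). It was also lost without ID2-labelled library 1 (edgeR adjusted p = 0.0734) or 2 (0.0666) or ID3-labelled library 1 (0.0606) or 2 (0.101), and it held without ID2-labelled library 3 (0.00825). So did the ID1 and ID4 differences (-0.71 and 0.67, edgeR adjusted p = 2.49e-05 and 5.49e-05).

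SSBP4 had 30.8, 29.2 and 27.4 CPM in GFP and 36.1, 31.4 and 38.0 CPM with the ID2 label, which lay above GFP in every library. It rose with that label by 0.29 (SE 0.09, edgeR adjusted p = 0.0132), a call lost without GFP library 3 (0.25, edgeR adjusted p = 0.0650) or ID2-labelled library 3 (0.22, edgeR adjusted p = 0.0654). The ID1-labelled libraries were lower than GFP, at 27.1, 23.8 and 23.4 CPM, and the difference of -0.25 (95% interval -0.44 to -0.06) just missed the threshold (edgeR adjusted p = 0.0518). It passed without GFP library 3 (-0.29, edgeR adjusted p = 0.0480) or ID1-labelled library 1 (-0.32, edgeR adjusted p = 0.0280). With no library left out it also passed with only the 2 groups (edgeR adjusted p = 0.0395) and with the filterByExpr filter (edgeR adjusted p = 0.0483). The same held with the replicate number as a block (edgeR adjusted p = 0.0429) and with limma on the deposited log2 values (limma adjusted p = 0.0449). Between labels, SSBP4 was lower with ID1 than with ID2 (-0.54, SE 0.09, edgeR adjusted p = 0.000166) and higher with ID2 than with ID4 (0.32, edgeR adjusted p = 0.0123). The first held without ID2-labelled library 3 (-0.47, edgeR adjusted p = 0.000600). The second was lost without that library (0.26, edgeR adjusted p = 0.0562) or without ID4-labelled library 2 (0.27, edgeR adjusted p = 0.0728). It was also lost with only the 2 groups (0.32, edgeR adjusted p = 0.0551). Between ID1 and ID3 the difference of -0.28 (95% interval -0.47 to -0.10) just missed the threshold (edgeR adjusted p = 0.0502) and passed under 10 alternatives. Between ID2 and ID3 it was 0.26 (95% interval 0.07 to 0.44, edgeR adjusted p = 0.0507), and 0.19 without ID2-labelled library 3 (edgeR adjusted p = 0.156). The ID3-labelled and ID4-labelled libraries ranged from 29.7 to 31.1 and from 26.2 to 30.7 CPM and overlapped GFP. The last 1000 bases of SSBP4 overlap ISYNA1 on the other strand, and the log2 fold changes of ISYNA1 against GFP were -0.20, 0.23, -0.08 and 0.00 with ID1 to ID4, none of which passed (edgeR adjusted p = 0.181, 0.0844, 0.607 and 0.998). Between ID labels, ISYNA1 passed for ID1 against ID2 (-0.43, edgeR adjusted p = 0.00424) and ID2 against ID3 (0.31, edgeR adjusted p = 0.0399). Both had the sign of the SSBP4 difference. The other pairs of ID labels did not pass for ISYNA1. The part of ISYNA1 tags in the SSBP4 values was not tested.

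SSBP3 passed in 1 of the 10 comparisons. GFP libraries had 71.4, 65.7 and 69.5 CPM and ID3-labelled libraries 74.7, 75.3 and 74.8 CPM. The ID1-labelled libraries had 61.2, 64.3 and 65.0 CPM, below all GFP libraries, and the ID2-labelled and ID4-labelled libraries overlapped GFP at 65.2 to 68.8 and 68.8 to 70.9 CPM. The log2 fold changes against GFP were -0.13 (95% interval -0.25 to -0.02), -0.03 (-0.14 to 0.08), 0.10 (-0.01 to 0.22) and 0.02 (-0.09 to 0.14) with the labels ID1 to ID4, and none passed (edgeR adjusted p = 0.0912, 0.721, 0.182 and 0.816). Leaving out ID2-labelled library 3 gave -0.03 for ID2 (edgeR adjusted p = 0.746). SSBP3 was lower with ID1 than with ID3 (-0.23, SE 0.05, edgeR adjusted p = 0.00889). MRPL37, which overlaps the last 1000 bases of SSBP3 on the other strand, differed between the same labels by 0.02 (edgeR adjusted p = 0.900).

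The summed SSBP tags were 111 ± 4.60 CPM in GFP, 103 ± 1.07 with ID1, 125 ± 0.613 with ID2, 124 ± 1.47 with ID3 and 114 ± 2.26 with ID4 (SD, n = 3 each). Libraries with the ID2 and ID3 labels ranged from 123 to 126 CPM and lay above all others, and those with the ID1 label ranged from 103 to 105 CPM and lay below all others. SSBP2 supplied 12.1 ± 1.30% of these tags in GFP, 14.7 ± 0.946% with ID1, 18.8 ± 1.37% with ID2, 15.3 ± 1.19% with ID3 and 13.6 ± 0.635% with ID4 (SD, n = 3 each). Without ID2-labelled library 3 the ID2 sum was 125 CPM and the ID2 share 19.6%.

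**Figure D3:**
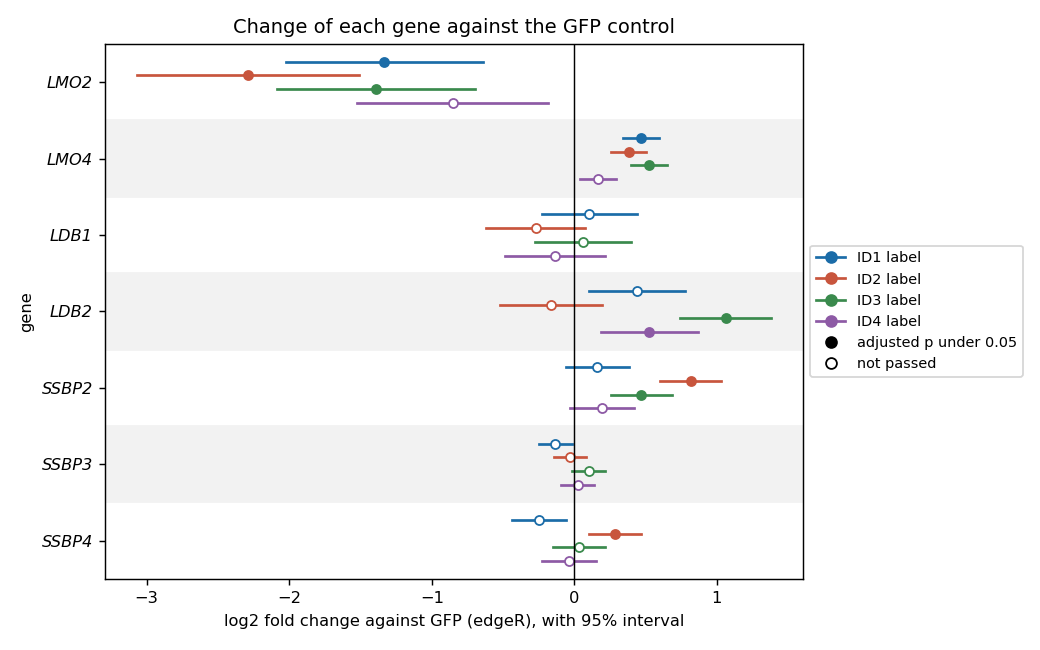
Log2 fold change of each gene against GFP with its 95% interval (edgeR), 1 colour per library label; filled points have an adjusted p under 0.05. LMO2 has the widest intervals and the largest fall, -2.29 with the ID2 label, and every LMO4 interval lies above 0.

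Comparison of the ID labels with each other asks which of these genes separate the ID groups. With ID1 against ID2, 3 of the 7 genes passed (LDB2 higher, SSBP2 and SSBP4 lower), where 18.6% of all tested genes passed. With ID1 against ID3, LDB2 and SSBP3 passed, both lower, against 9.18% of all tested genes. With ID1 against ID4 only LMO4 passed among the 7, against 4.87%. With ID2 against ID3, 2 genes passed, LDB2 lower and SSBP2 higher, against 15%. With ID2 against ID4, 5 genes passed, LMO4, SSBP2 and SSBP4 higher and LMO2 and LDB2 lower, against 18.6%. With ID3 against ID4, LMO4 and LDB2 passed, both higher, against 11.3%. The ID2 and ID4 labels thus had the most calls among the 7 genes, and 3 of these 5 remained without ID2-labelled library 3.

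**Figure D4:**
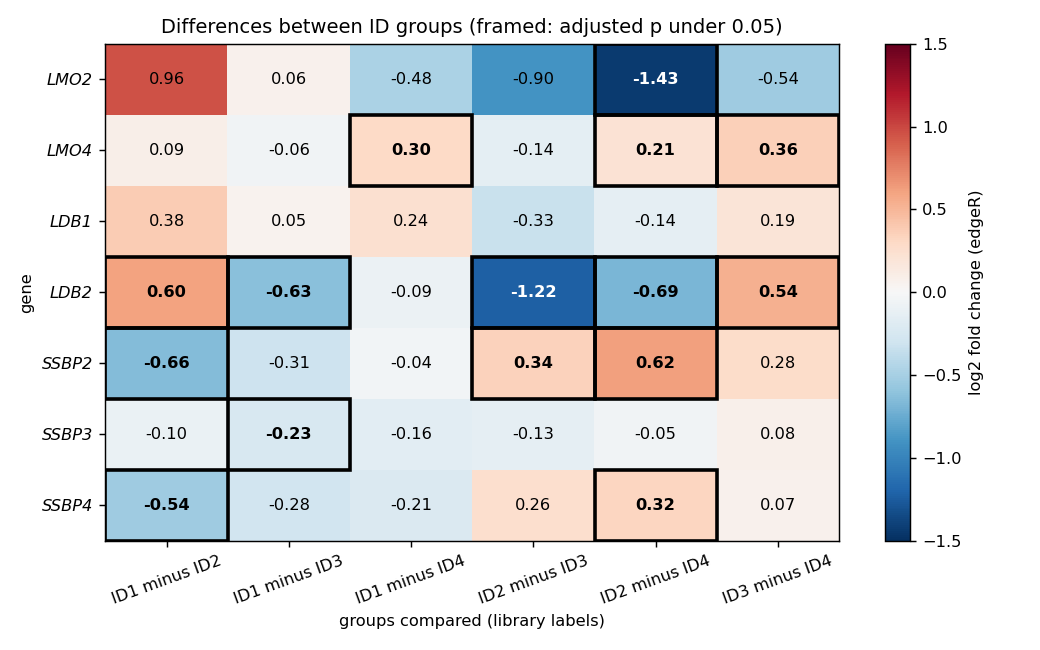
Log2 difference (edgeR) of each gene in the 6 pairs of ID labels, first label minus second, as colour and number; framed cells have an adjusted p under 0.05. LDB2 is framed in 5 pairs, LDB1 in none, and the deepest value is -1.43 for LMO2 between ID2 and ID4.

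Promoter sequence was compared for genes that rose and for SSBP3, because E proteins, the partners of ID proteins, bind E-boxes. RefSeq promoters on GRCh38.p14 were found for 4 of the 7 genes, LMO4, LDB1, SSBP2 and SSBP3. The 250 bases before the most upstream listed start are shown 5′ to 3′ on the gene's strand for the 2 that rose and for SSBP3, the only one of the 4 with a match, with E-boxes (CANNTG, which reads alike on both strands) in capitals. The windows are chr1:87328630-87328879 (plus) for LMO4, chr5:81751808-81752057 (minus) for SSBP2 and chr1:54413491-54413740 (minus) for SSBP3.
LMO4: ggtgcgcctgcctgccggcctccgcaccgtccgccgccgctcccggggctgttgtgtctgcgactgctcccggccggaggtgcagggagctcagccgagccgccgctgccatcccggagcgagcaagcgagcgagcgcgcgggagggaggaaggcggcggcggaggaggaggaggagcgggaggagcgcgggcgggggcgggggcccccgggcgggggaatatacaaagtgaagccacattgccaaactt
SSBP2: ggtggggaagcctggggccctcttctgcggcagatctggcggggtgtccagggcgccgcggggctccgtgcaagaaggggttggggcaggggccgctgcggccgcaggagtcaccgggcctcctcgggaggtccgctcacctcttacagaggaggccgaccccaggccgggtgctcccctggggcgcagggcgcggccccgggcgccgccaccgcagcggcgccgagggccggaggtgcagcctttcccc
SSBP3: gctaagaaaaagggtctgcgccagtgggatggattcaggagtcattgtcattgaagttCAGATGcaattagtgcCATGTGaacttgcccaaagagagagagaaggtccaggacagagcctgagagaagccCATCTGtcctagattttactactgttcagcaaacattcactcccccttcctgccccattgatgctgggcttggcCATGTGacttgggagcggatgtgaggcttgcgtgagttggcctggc
The windows of LMO4 and SSBP2, like that of LDB1, held no E-box, and SSBP3 held 4. Of 35116 listed promoter windows of this length, 61.8% held at least 1. None of the 4 genes had the STAT motif TTCNNNGAA, which also reads alike on both strands and was present in 6.57% of windows. Other listed starts differed. Of the 250-base windows before each listed start, 1 of the 2 of LMO4 and 1 of the 4 of SSBP2 held an E-box. The window of the downstream start of SSBP3 had none. GC made up 74.4% of the LMO4 window, 77.2% of the SSBP2 window and 51.6% of the SSBP3 window. These are matches of letters and not sites of binding.

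The partners of the complex were read from 9 lists with 44 genes, of which 26 passed the filter on low values. Of these 26, 7 were higher and 8 lower than GFP with the ID1 label, 7 and 9 with ID2, 7 and 9 with ID3, and 6 and 4 with ID4, where 22.1%, 35.1%, 28.6% and 21.6% of all tested genes passed in either direction. All 16 of the calls with the ID2 label held without ID2-labelled library 3. The blood-specific partners were nearly missing: TAL1, TAL2, LYL1 and GATA2 had fewer than 10 counts in every library and GATA1 had 0. The E proteins were abundant. TCF12 rose with every ID label, from 17 CPM in GFP to 25.6, 25.7, 27.5 and 25 CPM with ID1 to ID4 (log2 fold changes 0.58, 0.62, 0.68 and 0.56). TCF4 rose too, from 78.8 CPM to 89.7, 112, 105 and 94.9 CPM (0.17, 0.53, 0.40 and 0.27), of which the ID1 value had an edgeR adjusted p of 0.0348 and lost the call without any 1 of the 6 libraries (edgeR adjusted p up to 0.121). TCF3 moved the other way, falling from 269 CPM to 219, 230 and 202 CPM with ID1 to ID3, and the ID4 value of 246 CPM did not pass.

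Among GATA factors, which sit beside E proteins in LMO2 complexes, GATA3 rose from 10.1 CPM to 13.6, 15, 14.7 and 15.8 CPM with the labels ID1 to ID4. Its ID1 value was lost without ID1-labelled library 1 or 3 or GFP library 2 or 3 (edgeR adjusted p = 0.179, 0.0871, 0.117 and 0.0998). GATA6 fell from 5.48 CPM to 3.09, 3.17, 3.13 and 2.81 CPM (log2 fold changes -0.84, -0.78, -0.83 and -0.96), and the ID2 call was lost without ID2-labelled library 2 (-0.54, edgeR adjusted p = 0.0588). Of 12 LIM-homeodomain genes, 4 could be tested and only LHX6, a factor of interneuron development, passed against GFP: it rose from 4.57 CPM to 6.63, 7.80, 7.40 and 6.53 CPM. In the Wnt enhanceosome, where LDB and SSBP join BCL9 and Pygopus, PYGO1 rose with the ID1 label (5.12 to 8.12 CPM, edgeR adjusted p = 0.00584; 0.0558 without GFP library 1). BCL9 fell with ID1 and ID2, from 6.11 CPM to 3.95 and 4.08 CPM (edgeR adjusted p = 0.0186 and 0.0248). Both BCL9 calls were lost without GFP library 3 (edgeR adjusted p = 0.0812 and 0.101), the first also without ID1-labelled library 2 (0.102) and the second without ID2-labelled library 1 (0.0840). PYGO2 fell with ID1, from 39.4 to 31.7 CPM (-0.33, edgeR adjusted p = 0.00614). BCL9L had 52.8 CPM in GFP and 61.3, 65.3, 64.3 and 61.6 CPM with ID1 to ID4. Of the 4 genes of this list, 1, 1, 1 and 0 passed as higher than GFP and 2, 1, 0 and 0 as lower with ID1 to ID4. RLIM, which marks LDB and LMO proteins for degradation, fell from 235 CPM to 209, 191 and 197 CPM with ID1 to ID3, and 209 CPM with ID4 did not pass. Of the LMO4 partners DEAF1, RBBP8 and BRCA1, 0, 2, 3 and 1 were lower with ID1 to ID4 and none was higher.

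Cytoplasmic LMO2 has been linked to gp130 and Janus kinases, which signal to STAT3. JAK1 rose with all 4 labels, from 74.0 CPM to 96.0, 94.6, 107 and 88.6 CPM (edgeR adjusted p = 8.94e-05, 3.27e-05, 6.83e-07 and 0.00279). STAT3 mRNA fell from 164 CPM to 145, 136, 131 and 132 CPM (edgeR adjusted p = 0.0434, 0.00587, 0.000604 and 0.00192), and the ID1 call was lost under several alternatives, among them GFP library 2 left out (-0.15, edgeR adjusted p = 0.203). IL6ST, which encodes gp130, had 28.4 CPM in GFP and 33.0, 30.1, 28 and 29.2 CPM with ID1 to ID4, and no value passed (edgeR adjusted p = 0.104 to 0.826). JAK2, DVL1 and DVL2 did not pass either. Among endothelial targets of LMO2 complexes, ANGPT2, a ligand of the TIE2 receptor, fell from 32.4 CPM to 12.5, 15.3, 24.0 and 12.4 CPM. NRP2, a co-receptor for VEGF and semaphorins, rose from 56.5 CPM to 138, 114, 136 and 97.7 CPM, with log2 fold changes of 1.28, 1.04, 1.25 and 0.79. NRP1 fell with ID1, ID2 and ID3 (-0.39, -0.21 and -0.26). CDH5, the endothelial cadherin, had fewer than 10 counts in every library.

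**Figure D5:**
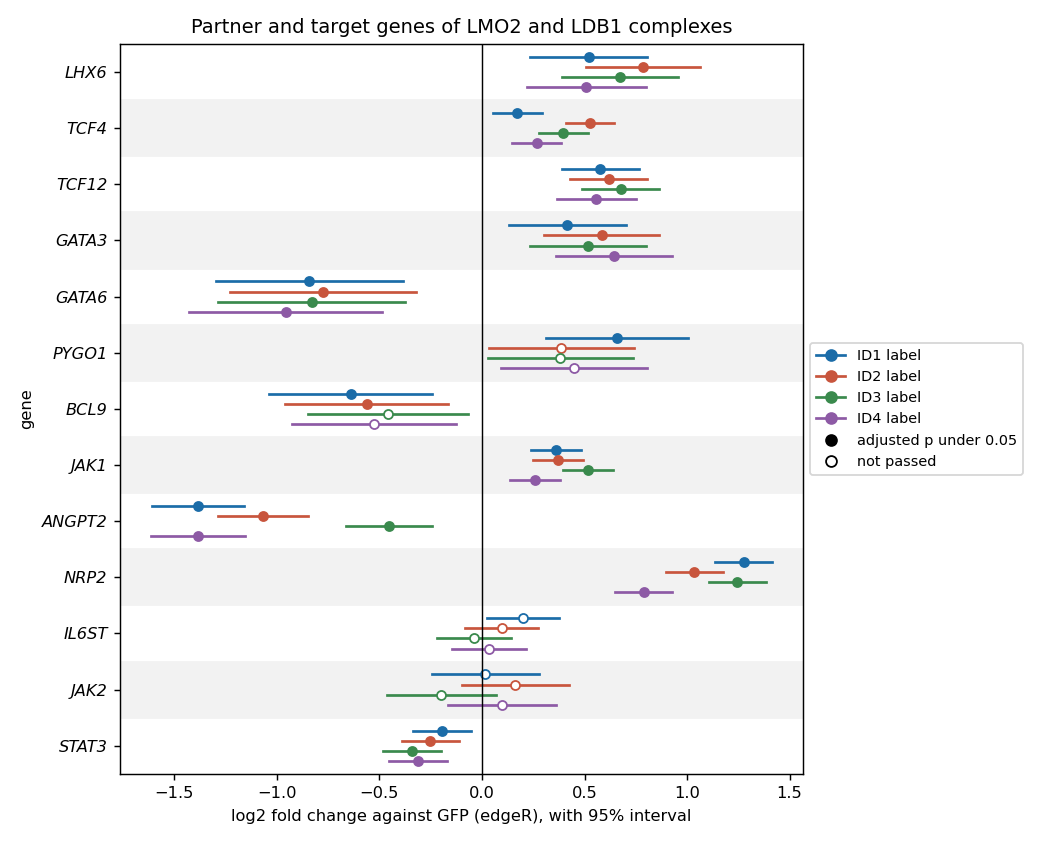
Log2 fold change against GFP with 95% interval (edgeR) of the named partner and target genes, 1 colour per library label; filled points have an adjusted p under 0.05. LHX6, TCF4, TCF12, GATA3, JAK1 and NRP2 are filled on the right with all 4 labels, and GATA6, ANGPT2 and STAT3 on the left.

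The tested genes whose log2 CPM followed LMO2 most closely over the 15 libraries were LUCAT1 (Pearson r 0.92, Spearman rho 0.95), AGPAT9 (0.91 and 0.87) and GAR1 (0.91 and 0.83). LUCAT1, a long noncoding RNA, had 5.32 CPM in GFP and 2.08, 1.58, 2.49 and 2.68 CPM with ID1 to ID4. LMO4 was followed most closely by COL3A1 (0.96 and 0.86), MMP3 (0.95 and 0.85) and SORBS2 (0.94 and 0.86). MMP3, which encodes stromelysin 1, had 10.5 CPM in GFP and 61.4, 69.8, 77.3 and 18.3 CPM with ID1 to ID4, so that it too was lowest among the ID labels with ID4. LDB2 was followed by FRYL (0.91 and 0.91), SLC9A5 (0.90 and 0.89) and ARRB1 (0.89 and 0.86). ARRB1, which encodes beta-arrestin 1, had 1.05 CPM in GFP and 2.43, 0.795, 3.35 and 2.49 CPM. These correlations describe 15 points that share 5 group means and were picked as the highest of all tested genes. They include ID2-labelled library 3, where LMO2 had only 3 counts, and were not computed without it.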

How the data were processed

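RNA from 15 libraries (5 groups of 3) was profiled by QuantSeq at eBiogen. The authors deposited raw counts per gene symbol and log2 values of counts normalized between libraries, on hg19 (GRCh37). The submitters' processing notes name Bowtie2 and BWA; versions, counting tool, strand setting and annotation are not given in the sources used here. The labels do not say whether libraries came from separate cultures, so p-values measure only the spread between these libraries. All 15 columns of each kind matched a label.

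The 7 genes, the gene lists and the tests were chosen with earlier results of these data known. Counts were fitted with edgeR 4.0.16 in R 4.3.3 (TMM factors 0.978 to 1.026, 1 mean per group, common dispersion 0.00463). The test covered the 12870 genes whose deposited log2 values averaged at least 3.22, with Benjamini-Hochberg adjustment over all of them. The SE is the absolute log2 fold change divided by the square root of F. CPM used plain library totals of 11089044 to 15148979. All 7 genes are named. Of the 9 lists, genes were named when an adjusted p was under 0.05 with an absolute log2 fold change of 0.5 or more against GFP, together with IL6ST, JAK1, JAK2 and STAT3. TCF3, PYGO2, BCL9L, RLIM, NRP1, the LMO4 partners, the DVL genes and list members without a passing value fall outside that rule, and those printed were chosen after their values were seen. For LMO2, LMO4 and LDB2 the 3 genes with the highest Pearson r of log2 CPM (prior count 2) were named.

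In a simulation of ID1 against GFP with 200 of 12870 genes changed, edgeR found 88 of 100 changes of 2-fold and 74 of 100 of 1.5-fold, with 11 false calls. Far fewer genes changed there than the 21.6% to 35.1% that passed against GFP in the data. No simulated library was made to stand apart as ID2-labelled library 3 did. The rates cover genes of all depths, so they do not give the rate for LMO2 at 3 to 63 counts. Alternatives were filterByExpr (13292 genes), all 20253 genes with a count, the upper 25%, no TMM, upper-quartile factors, DESeq2 1.42.0, limma 3.58.1 with trend on the deposited log2 values, only the 2 groups compared, the replicate number as a block and each library left out. Scaled CPM and the alternatives for list genes were added after the data were seen. Python 3.11.15 and matplotlib 3.10.9 were used for summaries and figures.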

Additional observations from a re-analysis of the deposited data

How the results depend on the processing

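Of 1010 values of the 7 genes computed under alternatives, 941 had the same direction and call, 28 lost the call, 32 gained it and 9 changed sign. Of 686 values of the list genes LHX6, TCF4, TCF12, GATA3, GATA6, BCL9, PYGO1, JAK1, JAK2, IL6ST, STAT3, ANGPT2 and NRP2, 657 kept both, 26 lost the call and 3 changed sign. The other list genes were compared only without ID2-labelled library 3. Only LMO4, SSBP3 and SSBP4 are among the upper 25% of genes. Of these, 1 (ID1), 2 (ID2), 1 (ID3) and 1 (ID4) passed against GFP, where 1934, 3025, 2509 and 1914 of 6436 genes did. Between ID1 and ID2 1 passed (1834 of 6436 genes), between ID1 and ID3 2 (1073) and between ID1 and ID4 1 (460). Between ID2 and ID3 2 passed (1444), between ID2 and ID4 2 (1829) and between ID3 and ID4 1 (1216). Calls gained there were LMO4 with ID4 against GFP (0.18, edgeR adjusted p = 0.0285), SSBP4 between ID1 and ID3 (-0.29, edgeR adjusted p = 0.0323), and SSBP3 and SSBP4 between ID2 and ID3 (-0.14 and 0.24, edgeR adjusted p = 0.0447 and 0.0488). Against GFP with the ID4 label, 2 of the 7 passed with no filter beyond a count above 0, with upper-quartile factors and with only the 2 groups. Of all genes, 2930 of 20253, 2718 of 12870 and 3029 of 12870 passed there. With only the 2 groups, 4 of the 7 passed between ID1 and ID3 (1707 of 12870 genes), 1 between ID2 and ID3 (1073) and 2 between ID2 and ID4 (1731). Without TMM 4 of the 7 passed between ID2 and ID3, where 2013 of 12870 genes did. The summed SSBP level with the ID2 label was 127 CPM with TMM-scaled totals.

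With each library left out, the number passing against GFP was 2 to 3 (ID1), 3 to 4 (ID2), 4 in every case (ID3) and 0 to 1 (ID4). It was 2 to 3 for ID1 against ID2, 1 to 3 for ID1 against ID3, 1 to 2 for ID2 against ID3, 3 to 5 for ID2 against ID4 and 1 to 2 for ID3 against ID4. The sign changes were in values that did not pass, and all came with a library left out. Their ranges were -0.19 to 0.21 for LMO2 and -0.063 to 0.16 for LDB1 between ID1 and ID3, -0.0047 to 0.22 for LDB1 with ID1 against GFP, -0.17 to 0.030 for LDB2 and -0.094 to 0.021 for SSBP2 between ID1 and ID4, -0.0060 to 0.039 for SSBP3 with ID4 against GFP, and -0.0061 to 0.069 and -0.097 to 0.021 for SSBP4 with ID3 and ID4 against GFP. Among list genes they were -0.085 to 0.015 for IL6ST with ID3 and -0.076 to 0.12 for JAK2 with ID1. The causes were not tested.

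The replicate numbers did not pair libraries, since libraries of equal number had correlations of -0.25 to 0.24 after removal of group means, and a library correlated best with its own number in another group in 15 of 60 cases. With the replicate block, 527 to 4362 genes passed in the 10 comparisons against 627 to 4519 without it. SSBP4 gained 3 calls (-0.25, edgeR adjusted p = 0.0429 for ID1 against GFP; -0.29, edgeR adjusted p = 0.0427 for ID1 against ID3; 0.25, edgeR adjusted p = 0.0451 for ID2 against ID3), and no other call of the 7 genes changed. Depth limited LMO2, at 3 to 63 counts per library, more than the other genes.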

Other observations

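The median log2 fold change of the tested genes near LDB1 on chromosome 10 was below 0 with each ID label. Over the 22 tested genes within 1 Mb of LDB1, it was -0.26, -0.20, -0.14 and -0.22 with ID1 to ID4. Of these genes, 11, 14, 8 and 10 passed the edgeR test in either direction, where 22.1%, 35.1%, 28.6% and 21.6% of all tested genes passed. Over all 462 tested genes of chromosome 10 the median was -0.14, -0.16, -0.09 and -0.10. LDB1 itself, at 0.11, -0.27, 0.06 and -0.13, did not pass. The cause was not tested.

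For the 17 tested genes within 1 Mb of LMO2 on chromosome 11, the medians were -0.04, 0.05, 0.00 and 0.00, with 5, 3, 7 and 4 genes passing beside the same shares of all tested genes. LMO2 itself had -1.33, -2.29, -1.39 and -0.85, of which the last did not pass. The 9 tested genes within 1 Mb of SSBP2 had medians of 0.04, 0.02, -0.10 and -0.02, with 2 passing in each comparison beside those shares.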
